A study of Homo sapiens with 6 samples.

Results

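TXNIP, ARRDC4 and 8 further genes of glucose sensing and glucose uptake were followed in neural stem cells given the compound X5050. The 10 genes are the alpha-arrestins TXNIP, ARRDC4, ARRDC3 and ARRDC2, the transcription factors MLXIP, MLX and MLXIPL, the glucose transporters SLC2A1 and SLC2A3, and the hexokinase HK2. They were chosen by their role and with the difference between X5050 and DMSO, paired by replicate number, in view, so that difference is described below for the 10 genes and no test of it is used as support. Each had exactly 1 row with a single gene symbol, giving 10 of the 19460 such rows on the array.

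The cells were neural stem cells, which can give rise to neurons and glia, at passage 14, derived from human embryonic stem cells of the line SA-01 and grown in medium with N-2 and B-27 supplements. One group of 3 samples received X5050 at 100 µM, which the series title calls an inhibitor of the repressor REST, and the other group of 3 received the solvent DMSO at 0.1%. Treatment began 5 h after plating and lasted 24 h, and total RNA was hybridised to 1 Affymetrix array per sample. The samples came from 3 independent cultures, read as each supplying 1 sample per treatment, and the findings extend to this 1 line only. Values are log2 signals, in which a difference of 1 is a doubling, and all changes are X5050 minus DMSO.

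Array medians lay between 5.68 and 5.75. The 10 neural stem cell markers averaged 9.24 to 9.34 on the X5050 arrays and 9.35 to 9.38 on the DMSO arrays. Of these, 8 were among the brightest 25% of rows on every array. The mean of the 10 was lower with X5050 in each culture, with 6 genes below 0 and 4 above. NES had the lowest change (-0.42, paired SE 0.099), which did not pass (limma adjusted p = 0.113). The 10 mesenchymal markers, of another cell type, averaged 6.72 to 7.99 with X5050 and 7.06 to 8.51 with DMSO. Their mean was lower with X5050 in each culture. Of these 10 genes 9 had a change below 0 and 1, THY1, above 0. LUM fell (change -1.09, paired SE 0.15, limma adjusted p = 0.0386). Its groups overlapped, and it did not pass when the matching of samples by culture was ignored (limma adjusted p = 0.629). Culture 1 had the highest mesenchymal mean under both treatments. The 7 measured neuronal markers averaged 8.91, 9.16 and 9.22 in X5050 cultures 1, 2 and 3, against 8.71, 8.98 and 9.17 in the DMSO cultures, so their mean was higher with X5050 in each culture. Of these 7 genes 4 were above 0 and 3 below, and SNAP25, a synaptic vesicle fusion protein, rose (change 0.66, paired SE 0.087, limma adjusted p = 0.0328). SNAP25 did not pass without that matching either (limma adjusted p = 0.366), and without culture 3 the array had 0 rows that passed. SYT1 had the next largest change (0.48), and the median change of the 7 genes was 0.02. The array gives no detection call, so no marker can be called absent.

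TXNIP and ARRDC4 are scaffold proteins that promote the removal of glucose transporters from the cell surface, and TXNIP also binds thioredoxin. Their transcription is known to be driven by MondoA (encoded by MLXIP), which pairs with MLX and moves into the nucleus when sugar phosphates accumulate. ChREBP (MLXIPL) is the paralog of MondoA best known in liver. TXNIP in turn restrains glucose uptake through GLUT1 (SLC2A1), which closes a feedback loop.

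ARRDC4 was 2.53-fold lower with X5050, and it showed the widest difference of the 10 genes. Its signal was 7.54, 7.07 and 7.07 in X5050 cultures 1, 2 and 3, against 9.10, 8.22 and 8.38 in DMSO cultures 1, 2 and 3. Every X5050 value lay below every DMSO value. The mean change was -1.34 (paired SE 0.10, n = 3 cultures), and the change was -1.56, -1.15 and -1.31 in cultures 1, 2 and 3. In this bulk RNA, fewer cells of a type and less RNA per cell cannot be told apart.

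TXNIP was 1.67-fold lower with X5050. It stood at 9.71, 9.89 and 10.15 in X5050 cultures 1, 2 and 3, against 10.18, 10.85 and 10.96 in the DMSO cultures. The groups did not overlap, although X5050 culture 3 and DMSO culture 1 were only 0.03 apart. The mean change was -0.74 (paired SE 0.11, n = 3 cultures), with -0.47, -0.95 and -0.80 in cultures 1, 2 and 3.

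Both genes were lower in all 3 cultures, but their profiles were not parallel. Culture 1 had the highest ARRDC4 and the lowest TXNIP under both treatments, and it showed the widest ARRDC4 difference and the narrowest TXNIP difference. Over the 6 arrays the Pearson correlation of the pair was 0.50. It is given as a description, since the arrays share 3 cultures and 2 treatments.

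ARRDC3, an alpha-arrestin that acts on beta-adrenergic receptors and integrins and is known to respond to nutrients and hormones, was 1.40-fold higher with X5050. It read 10.80, 10.85 and 11.08 in X5050 cultures 1, 2 and 3, against 10.24, 10.54 and 10.48 in the DMSO cultures. All X5050 values were above all DMSO values. The mean change was 0.49 (paired SE 0.096, n = 3 cultures), with 0.56, 0.31 and 0.59 in cultures 1, 2 and 3. ARRDC2, another alpha-arrestin, sat in the dimmer part of every array (percentiles 35.5 to 41.8) and had 5.17, 4.90 and 5.13 with X5050 and 5.07, 4.89 and 5.09 with DMSO. Its groups overlapped and its mean change was 0.05 (paired SE 0.087). The 4 alpha-arrestins were thus 2 lower, 1 higher and 1 near 0.

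**Figure D1:**
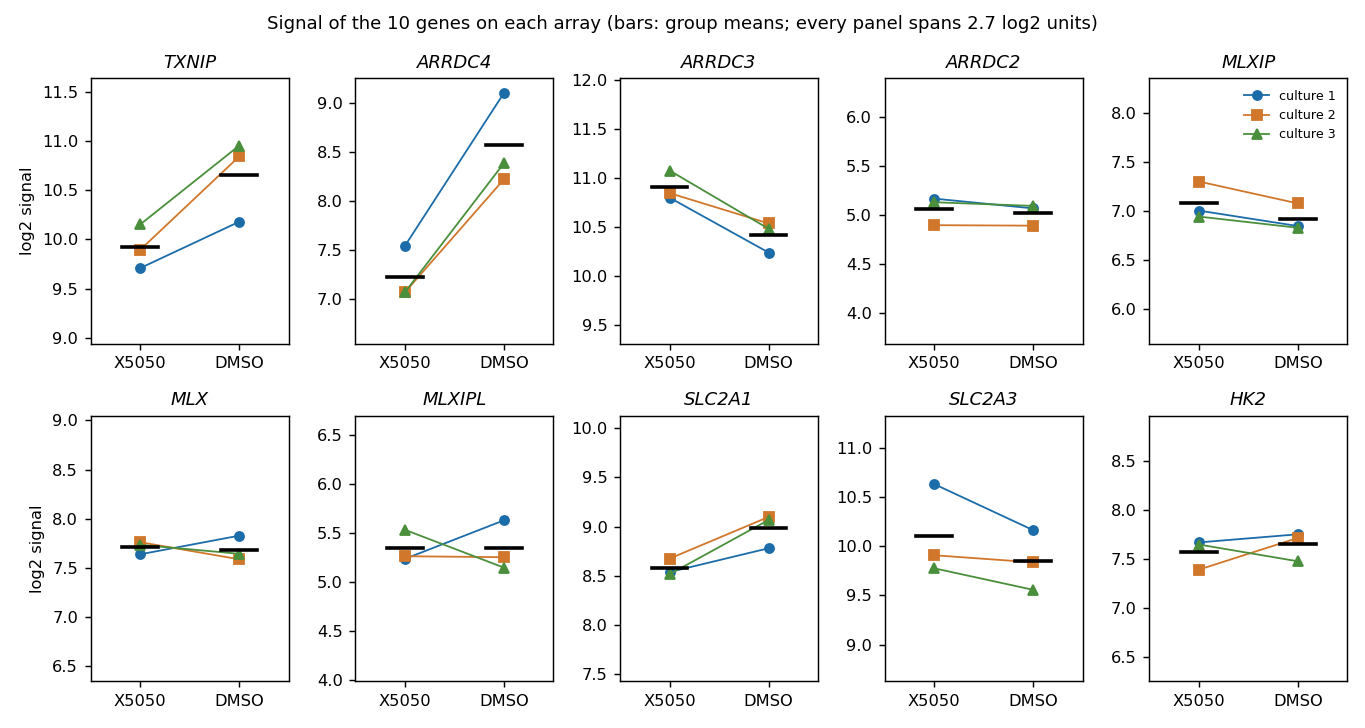
Log2 signal (vertical axes, all panels spanning the same range) of the 10 genes on each array, X5050 at the left and DMSO at the right of each panel. Lines join the samples of 1 culture and black bars are group means. ARRDC4, TXNIP and SLC2A1 are lower with X5050 and ARRDC3 is higher, without overlap of the groups.

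The genes encoding the factors that act on TXNIP and ARRDC4 showed small differences. MLXIP (MondoA) had 7.01, 7.30 and 6.94 in X5050 cultures 1, 2 and 3, against 6.85, 7.08 and 6.83 in the DMSO cultures. It was higher in each culture but the groups overlapped, and the mean change was 0.17 (paired SE 0.087). MLX, the shared partner, stood at 7.64, 7.76 and 7.73 with X5050 and at 7.83, 7.59 and 7.64 with DMSO. Its change was -0.19, 0.17 and 0.09 in cultures 1, 2 and 3, a mean of 0.03 (paired SE 0.10). MLXIPL (ChREBP) stood at 5.24, 5.27 and 5.53 with X5050, against 5.63, 5.26 and 5.15 with DMSO. Its cultures went opposite ways, with changes of -0.39, 0.01 and 0.39 and a mean of 0.00077 (paired SE 0.14). MLXIPL turned to -0.02 with arrays centred on their medians, and MLX to -0.05 without culture 2, so neither has a direction here.

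SLC2A1 encodes GLUT1, the transporter of basal glucose uptake, and was 1.33-fold lower with X5050. It read 8.54, 8.67 and 8.51 in X5050 cultures 1, 2 and 3, against 8.78, 9.10 and 9.07 in the DMSO cultures, with no overlap. The mean change was -0.41 (paired SE 0.097, n = 3 cultures), with -0.24, -0.42 and -0.55 in cultures 1, 2 and 3. Over the 6 arrays the Pearson r of SLC2A1 with TXNIP was 0.91. That of SLC2A3 with TXNIP was -0.74, and that of ARRDC4 with ARRDC3 was -0.97. These are descriptions, since genes that differ between the treatments correlate here for that reason alone.

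SLC2A3, which encodes GLUT3, the high-affinity transporter of neurons, lay on the other side. It read 10.63, 9.91 and 9.78 in X5050 cultures 1, 2 and 3, against 10.16, 9.84 and 9.56 in the DMSO cultures. The groups overlapped because the cultures differed more than the treatments, while each culture was higher with X5050, by 0.47, 0.07 and 0.22. The mean change was 0.25 (paired SE 0.10), and it was 0.15 without culture 1. Its close copy SLC2A14 had a change of 0.18 (paired SE 0.090), and the array may not fully separate the 2 transcripts. The part of the neuronal markers in the SLC2A3 difference was not tested. Their mean was also higher with X5050, with SNAP25 (0.66) and SYT1 (0.48) furthest up, but their median change was 0.02.

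HK2 encodes the inducible hexokinase that traps glucose as glucose 6-phosphate, the kind of sugar phosphate that MondoA responds to. Its signal was 7.67, 7.39 and 7.65 in X5050 cultures 1, 2 and 3, against 7.75, 7.71 and 7.48 in the DMSO cultures. The groups overlapped and the mean change was -0.08 (paired SE 0.11). The change was 0.04 without culture 2, so HK2 has no direction here either.

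**Figure D2:**
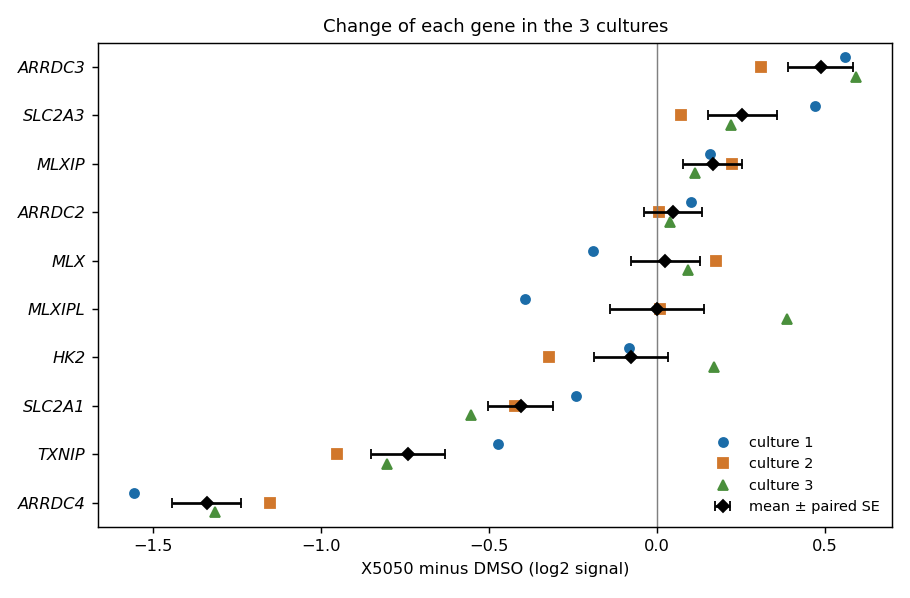
X5050 minus DMSO (horizontal axis, log2 signal) of the 10 genes in cultures 1, 2 and 3 (coloured symbols), with the mean and its paired SE in black. ARRDC4, TXNIP and SLC2A1 lie below 0 in every culture, ARRDC3, SLC2A3, MLXIP and ARRDC2 above 0 in every culture, and MLX, MLXIPL and HK2 on both sides.

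Of the 10 genes, 3 were lower in all cultures and 4 were higher in all cultures. The share of all rows with 1 direction in all cultures was not counted, so these 2 counts have no background. The median change of the 10 genes was 0.01, the same to 2 decimals as the median over all 19460 rows. The X5050 values lay entirely below the DMSO values for 3 genes, as for 7.41% of all rows, and entirely above for 1, as for 7.51%. In the limma fit over all rows, with culture as a block, an adjusted p under 0.05 was reached on the lower side by 2 of the 10 genes (ARRDC4 and TXNIP) and 0.308% of all rows. On the higher side it was reached by 0 of the 10 and 0.19% of all rows. The number of the 10 under it varied with the setting, from 0 without the block or without culture 3, through 1 (ARRDC4) without culture 2 or with repeated quantile normalization, to 3 with an intensity trend, where ARRDC3 was added on the higher side. These counts are descriptions from which nothing is read, as the same contrast chose the 10 genes.

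Whether a gene differed between the 3 cultures, over both treatments, is a measure that the choice of genes did not use directly. Its F test shares the residual variance of the X5050 minus DMSO contrast, so it is not fully separate from that choice. By limma's moderated F test with adjustment over all 19460 rows, 2 of the 10 genes differed between cultures, where 2.93% of all rows did. SLC2A3 averaged 10.40, 9.87 and 9.67 over both treatments in cultures 1, 2 and 3 (limma adjusted p = 0.0408). ARRDC4 averaged 8.32, 7.64 and 7.73 in cultures 1, 2 and 3 (limma adjusted p = 0.0454). Culture 1 was the high one for both genes. TXNIP, at 9.945, 10.37 and 10.555 in cultures 1, 2 and 3, did not pass (limma adjusted p = 0.104), and the other 7 genes had adjusted p from 0.300 to 0.963.

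Both calls were lost when culture 1 or culture 3 was left out. Without culture 1 the adjusted p in limma was 0.856 for ARRDC4 and 0.539 for SLC2A3, and without culture 3 it was 0.0823 and 0.160, with 1 residual degree of freedom in each case. ARRDC4 also missed the threshold after another quantile normalization (0.0637). TXNIP passed without culture 2 (0.0295) and with an intensity trend in the variance prior (0.0326). The mesenchymal markers, highest in culture 1, differed between cultures for 8 of 10 genes, and their part in the ARRDC4 and SLC2A3 differences was not tested.

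The promoters of TXNIP and ARRDC4 are shown because MondoA and MLX are known to act on both genes through carbohydrate response elements close to the start site. Windows of 250 bases before to 50 bases after a start site were taken from RefSeq (GRCh38.p14), which gave 13 windows for 9 of the 10 genes, all but SLC2A3. Capitals mark matches to 3 motifs searched on both strands: the E-box CACGTG, the CCAAT box (ATTGG on the other strand), and the layout of a carbohydrate response element, CACGNG followed after 5 bases by CNCGNG. The TXNIP window is chr1:145996530-145996829 on the minus strand, and the ARRDC4 window is chr15:97960453-97960752 on the plus strand, both written 5′ to 3′ along the gene.
TXNIP: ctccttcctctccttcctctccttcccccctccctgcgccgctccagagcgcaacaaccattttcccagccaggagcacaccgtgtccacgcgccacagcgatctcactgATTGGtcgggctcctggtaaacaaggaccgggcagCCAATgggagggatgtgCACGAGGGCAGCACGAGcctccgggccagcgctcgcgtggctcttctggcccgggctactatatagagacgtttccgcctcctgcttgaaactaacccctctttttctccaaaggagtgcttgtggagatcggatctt
ARRDC4: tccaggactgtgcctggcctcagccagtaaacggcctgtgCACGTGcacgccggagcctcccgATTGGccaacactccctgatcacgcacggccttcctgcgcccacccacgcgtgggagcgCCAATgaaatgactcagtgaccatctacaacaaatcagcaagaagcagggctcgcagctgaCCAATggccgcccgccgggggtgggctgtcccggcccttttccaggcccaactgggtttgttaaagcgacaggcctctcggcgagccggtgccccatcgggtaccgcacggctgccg

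In the TXNIP window the long run of capitals, from -88 to -72 relative to the start site, matched the carbohydrate response element layout. The layout was present in 0.501% of all 35116 promoter windows (176 windows) and in none of the other 12 windows of these genes, the second TXNIP start included. ARRDC4 held an E-box at -210 to -205 and no match to the layout as written. E-boxes stood in 7.26% of all windows, and also in the MLX window and in 1 of the 2 HK2 windows. CCAAT boxes were in 34.6% of all windows, with 2 in the TXNIP window shown and 3 in that of ARRDC4. ARRDC3, higher with X5050, had 1 CCAAT box in its 2 windows, and SLC2A1, lower with X5050, had 1 in its window. Neither gene had a match to the other motifs. A match is a description of letters, and a missing one says only that these letters are not in the window.

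**Figure D3:**
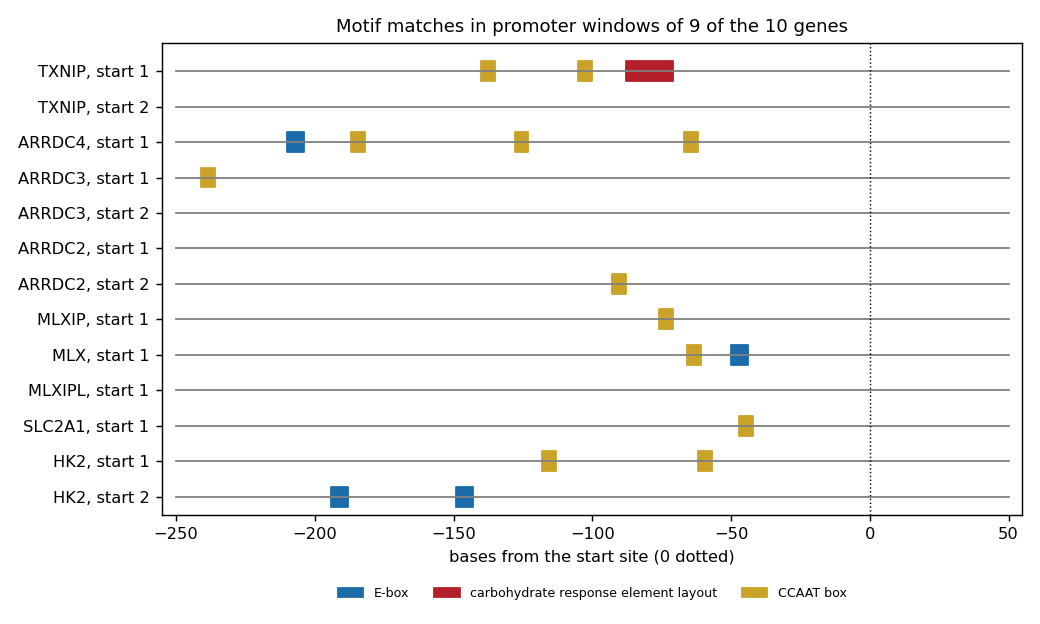
Matches to the E-box, the carbohydrate response element layout and the CCAAT box in 13 promoter windows of 9 genes, by distance in bases from the start site (horizontal axis). The layout appears once, in the first TXNIP window, and E-boxes appear in ARRDC4, MLX and the second HK2 window.

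Around these genes, 11 lists of pathway genes outside the 10 were examined in the same limma fit. Of 136 listed genes 122 were measured. Of these, 70 had a change above 0 and 52 below, where 47.3% of all rows were below 0. At an adjusted p under 0.05 over all rows 0 rose and 1 fell, where 0.19% and 0.308% of all rows did. At an unadjusted p under 0.05 there were 12 list genes on the higher side (9.84%, against 7.06% of all rows) and 11 on the lower side (9.02%, against 7.48% of all rows). These shares lie near those of all rows.

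Among 13 further genes known as targets of MLX factors, PNPLA3, a lipase of lipid droplets that also responds to SREBP, was 1.56-fold lower and fell (change -0.65, paired SE 0.095, limma adjusted p = 0.0423). It read 5.61, 5.17 and 5.30 in X5050 cultures 1, 2 and 3, against 6.16, 5.98 and 5.88 in the DMSO cultures, without overlap. Its call was lost in limma without culture 3 (adjusted p = 0.209), without culture 2 (0.0752), when quantile normalization was repeated (0.0517) and when the block was dropped (0.314). KLF10, a zinc finger repressor induced by glucose, had 6.86, 6.68 and 6.49 in X5050 cultures 1, 2 and 3, against 7.32, 7.21 and 6.94 in the DMSO cultures. Its X5050 values were all below its DMSO values, but the change of -0.48 (paired SE 0.087) did not pass (limma adjusted p = 0.0623). In this list 8 genes were below 0 and 5 above, with a median of -0.15.

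Partners of the arrestins had no gene past the threshold. Of 2 other arrestins, ARRB1 (beta-arrestin 1) had a change of 0.32 (paired SE 0.10) and ARRDC1 of 0.14 (paired SE 0.10). Of 7 ubiquitin ligases that bind PPxY motifs such as those of alpha-arrestins, 6 were above 0, with a median of 0.17. NEDD4L had 9.01, 9.33 and 9.48 in X5050 cultures 1, 2 and 3, against 8.65, 9.09 and 9.16 in the DMSO cultures, a change of 0.31 (paired SE 0.088, limma adjusted p = 0.161). WWP1 followed at 0.19 (paired SE 0.090).

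The list of the thioredoxin system, which TXNIP inhibits, had 7 of 9 measured genes below 0 and a median of -0.10. The list also held NLRP3 (change 0.06), which is not a gene of that system. The peroxiredoxin PRDX2 was at -0.31 (paired SE 0.11, limma adjusted p = 0.224) and the reductase TXNRD1 at -0.18 (paired SE 0.088). Without culture 2, PRDX2 stood at -0.24. In the MYC, MAX and MXD network, whose members share a dimerisation system with MLX, 5 genes were above 0 and 5 below, with a median of -0.01. MYCL was at -0.31 (paired SE 0.14) and the MAX partner MGA at 0.18 (paired SE 0.089). MYCL was higher with X5050 in culture 1 and lower in the others, at -0.52 without culture 1 and -0.15 without culture 2.

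Among 13 other glucose and hexose transporters 10 were above 0, with a median of 0.06, and 0 passed. SLC2A13, a proton-coupled inositol transporter, had 6.67, 6.89 and 6.65 in X5050 cultures 1, 2 and 3, against 6.50, 6.47 and 6.06 in the DMSO cultures, a change of 0.40 (paired SE 0.10, limma adjusted p = 0.138). SLC2A14 was second in the list by p. The lowest change among the 13 was -0.13.

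Of 18 measured glycolysis genes 13 were below 0, with a median of -0.11, and 0 passed. PKM, the pyruvate kinase, read 9.63, 9.16 and 9.36 in X5050 cultures 1, 2 and 3, against 9.97, 9.81 and 9.77 in the DMSO cultures, a change of -0.47 (paired SE 0.098, limma adjusted p = 0.0868). ENO2, the neuronal enolase, went the other way at 0.43 (paired SE 0.12, limma adjusted p = 0.152) and stood at 0.26 without culture 1. The part of the neuronal markers in it was not tested either. The list median was -0.10, -0.20 and -0.09 in cultures 1, 2 and 3.

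Genes of hexosamine and glycogen metabolism had a median of 0.06 over 11 measured. The polyol genes of this list, AKR1B1 and SORD, were not measured. PYGL, a glycogen phosphorylase, had 8.87, 8.92 and 8.93 in X5050 cultures 1, 2 and 3, against 8.36, 8.41 and 7.84 in the DMSO cultures. Its change of 0.71 (paired SE 0.13) did not pass (limma adjusted p = 0.0631) and did so without culture 1, at 0.80 (0.0181). OGA, which removes the sugar tag O-GlcNAc from proteins, was at -0.34 (paired SE 0.086, limma adjusted p = 0.127), with all X5050 values below all DMSO values.

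Energy sensors had a median of 0.04 over 13 genes, and 2 beta subunits of AMPK lay on opposite sides. PRKAB2 was at 0.23 (paired SE 0.087) and PRKAB1 at -0.23 (paired SE 0.095), neither past the threshold. Of 13 measured hypoxia and HIF targets, examined because SLC2A1, SLC2A3 and HK2 are also HIF targets, 10 were above 0 with a median of 0.08. BNIP3, a mitophagy receptor, was at 0.45 (paired SE 0.090, limma adjusted p = 0.0770) and the sterol regulator INSIG2 at 0.26 (paired SE 0.096). Of 13 measured FOXO and glucocorticoid targets 10 were above 0 with a median of 0.10. SESN3, a sestrin induced by FOXO factors, had 11.21, 11.15 and 11.20 in X5050 cultures 1, 2 and 3, against 10.47, 10.79 and 10.68 in the DMSO cultures. Its change was 0.54 (paired SE 0.10, limma adjusted p = 0.0707), and that of CDKN1C, a cell cycle inhibitor, 0.23 (paired SE 0.090).

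**Figure D4:**
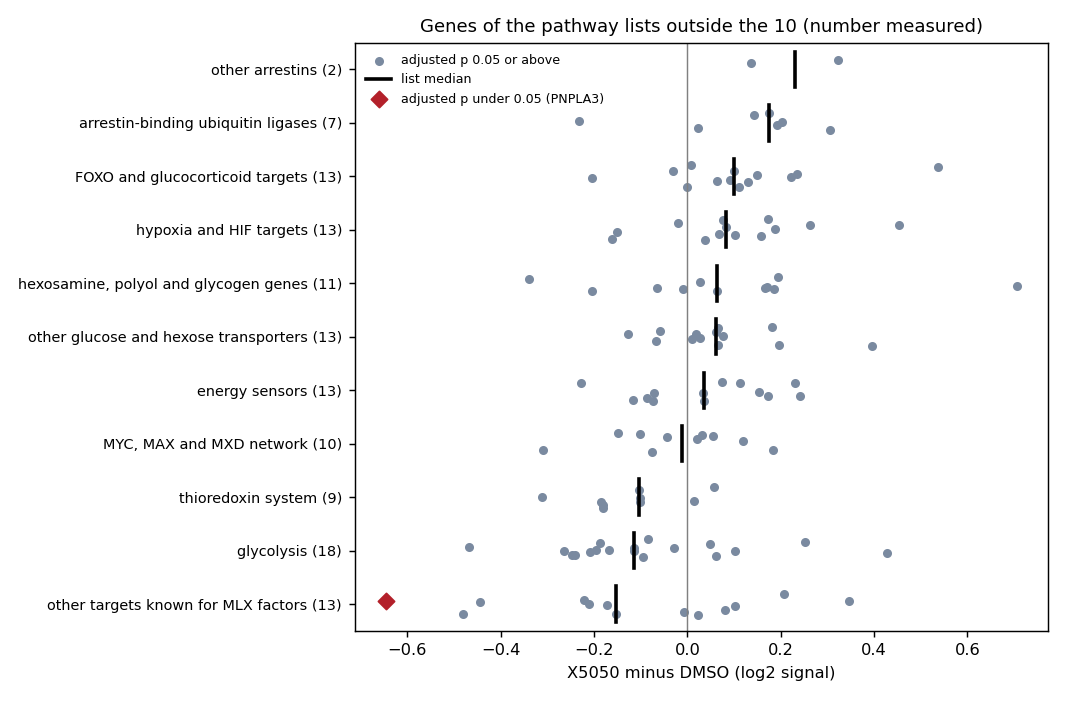
X5050 minus DMSO (horizontal axis, log2 signal) for each measured gene of the 11 lists outside the 10 genes, with the list median as a black bar and the number measured after each name. PNPLA3, the red diamond, is the 1 gene past an adjusted p of 0.05, at -0.65, and list medians lie between -0.15 and 0.23.

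The genes whose signal followed ARRDC4 most closely over the 6 arrays were DIABLO (Pearson r = 0.998), TMED2 (0.989) and DDA1 (0.987). Next came 2 sterol genes, INSIG1 (0.985) and DHCR7 (0.984). DIABLO is an inhibitor of apoptosis inhibitors, and TMED2 acts in cargo transport of the secretory pathway. DIABLO had 6.53, 6.40 and 6.40 in X5050 cultures 1, 2 and 3, against 7.09, 6.76 and 6.81 in the DMSO cultures. It shared with ARRDC4 the high culture 1 under both treatments. The changes of these genes were -0.44 for DIABLO, -0.21 for TMED2, -0.09 for DDA1, -1.05 for INSIG1 and -1.65 for DHCR7. Their shared direction was fixed by the choice, since a correlation this high requires it, and the correlation takes no account of size.

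For TXNIP the closest were LUC7L (Pearson r = 0.994), a splicing factor, the replication-dependent histone H3C7 (0.992), the zinc finger gene ZNF660 (0.992), the ciliary gene CC2D2A (0.991) and the complex I subunit NDUFB1 (0.989). H3C7 had 7.49, 7.60 and 7.79 in X5050 cultures 1, 2 and 3, against 7.75, 8.29 and 8.50 in the DMSO cultures. Like TXNIP it was lowest in culture 1 and highest in culture 3 under both treatments. The ARRDC4 and TXNIP sets of 5 had 0 genes in common. That was fixed by the Pearson correlation of 0.50 between ARRDC4 and TXNIP, which leaves no room for a gene this close to both. With 6 arrays and 19460 rows, high correlations are a description of these arrays.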

How the data were processed

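Total RNA (100 ng) of 3 X5050 and 3 DMSO samples was labelled by the Affymetrix whole-transcript protocol, per the labels. Each probe set has 1 log2 signal per array as deposited, and RMA and Partek appear per the submitters' processing notes. Versions, settings and annotation build: not given in the sources used here. RMA shrinks differences at dim probe sets, which affects the folds of dim genes such as MLXIPL and ARRDC2. Of 33297 probe sets 21214 are in the platform annotation, and the 19460 with 1 gene symbol were tested.

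The titles of the samples give group and replicate number. X5050 and DMSO samples were compared by limma 3.58.1 in R 4.3.3 (lmFit and eBayes, two-sided) on all 6 arrays with culture as a block, Benjamini-Hochberg adjustment over 19460 rows and a threshold of 0.05. The design text gives 3 independent cultures, and arrays sharing a number deviated together from the group mean (r = 0.365, 0.297 and 0.255). Pairs with different numbers gave -0.236 to -0.052. Centring on the group means pushes these below 0 once the former are above 0, so they are no separate evidence. With 3 against 3 arrays an exact permutation test that ignores the pairing cannot go below 0.1. Permutation within the 3 pairs has a higher floor still. The paired SE is limma's moderated SE. The number of arrays limits precision.

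The genes named were all 10 members, the 2 genes with the smallest p and any past the threshold in each list, and the 5 symbols nearest in profile to ARRDC4 and to TXNIP. Unnamed loci, small RNAs and open reading frame names were skipped among the last. The members and lists were chosen with earlier results of these data known. For lists, 1 probe set per symbol was used, the brightest by mean. The fits were tested on simulated data. Plots used Python 3.11.15 and matplotlib 3.10.9. Alternatives were the fit without the block, other normalizations, a filter on dim probe sets (lowest 25% by mean), an intensity trend, and leaving out each culture.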

Additional observations from a re-analysis of the deposited data

How the results depend on the processing

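Without a replicate block limma called 0 of all rows higher and 0 lower (875 and 949 at an unadjusted p under 0.05), against 37 and 60 with it, and 0 list genes fell. After another quantile normalization 18 were higher and 33 lower, and 0 list genes fell. Without dim probe sets 66 were higher. With an intensity trend 127 were higher and 147 lower, and 3 list genes rose (SESN3, PYGL, BNIP3) and 3 fell (PNPLA3, PKM, KLF10). Leaving out 1 culture gave 0 to 113 higher and 0 to 233 lower, both 0 without culture 3, where limma had 1839 rows at an unadjusted p under 0.05. It gave 0 to 1 list genes that rose and 0 to 2 that fell. Without culture 1 these were PYGL, PNPLA3 and KLF11, the last named after its values were seen. The count of rows that differed between cultures ranged from 265 to 688 with 1 culture left out, against 570 with all. The number of the 10 genes below 0 was 4 with all cultures and 4 to 6 with 1 left out. Their changes kept their signs in all alternatives run except those of MLX, MLXIPL and HK2. The cause of these shifts was not tested, beyond the smaller number of arrays. A median over several probe sets gave no separate value, since each of the 10 genes has 1 row. Groups of 3 arrays limit precision, and signal over background is unknown here.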
